A study of Mus musculus with 2 samples.

Results

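The 8 genes described here serve antigen presentation by major histocompatibility complex (MHC) class II molecules: H2-Aa, H2-Ab1, H2-Eb1, H2-DMa, H2-DMb1, Cd74, Ciita and Ctss. They were chosen by their symbols, with earlier results of these data known, so counts of members below are a description only. All 8 were found among the 31053 genes of the count tables. They were followed through basal, luminal, endothelial and fibroblast cells of the mouse mammary gland, cell types that are not professional antigen-presenting cells. MHC class II molecules are pairs of an alpha and a beta chain that carry peptides from the endosome to the cell surface, where CD4 T cells read them. The pair is escorted by the invariant chain, which proteases trim to a short fragment, and the H2-DM pair swaps that fragment for a peptide. B cells, dendritic cells and macrophages keep the pathway on, whereas many epithelial and endothelial cells turn it on under interferon gamma through the coactivator encoded by Ciita.

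Single cells were taken from mammary glands of C57BL/6 mice through a gate labelled CD24highCD29+, and their polyadenylated RNA was counted as 3' molecular tags (UMIs) on the 10x Genomics platform. There were 2 libraries, 1 with the genotype label WT and 1 with the genotype label Fgd5-ko, and the title of the latter carries the word cko. Fgd5 encodes an exchange factor for a small GTPase. The sources used here do not say in which cells Fgd5 was deleted, how old or how many the animals were, or what P4 stands for in the titles. With 1 library per group no difference below has a replicate check, there was no test, and every interval is an exact 95% interval that covers counting error only.

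The libraries differed in depth. The WT-labelled library held 10735 barcodes and 60566053 UMIs, and the Fgd5-ko-labelled library held 8798 barcodes and 136697801 UMIs; 34 barcodes occurred in both. The authors' table of cells listed 6588 and 6064 of these barcodes, whose median depth was 4954 and 15712 UMIs. Fgd5 tags were not fewer in the Fgd5-ko-labelled library. The basal-like count was 30 UMIs (0.840 CPM, counts per 1000000 UMIs of the class) in the WT-labelled library and 356 UMIs (4.07 CPM) in the Fgd5-ko-labelled library. Endothelial-like cells, where Fgd5 was more abundant, held it at 100.7 CPM (92.2 to 109.7) and 125.3 CPM (111.6 to 140.3). Because 3' tags may lie outside a deleted part of the gene, these counts cannot show whether Fgd5 was lost. Directions below are therefore those of the labelled libraries and not of Fgd5 loss.

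Basal-like cells were taken from the listed cells, 6363 in the WT-labelled library and 5075 in the Fgd5-ko-labelled library. Endothelial-like cells (1278 and 276) and fibroblast-like cells (921 and 480) came from barcodes outside the list. Luminal progenitor-like cells (146 and 23) and hormone-sensing luminal-like cells (113 and 10) came from both. All these classes were led by their own markers, such as Krt5 and Krt14, Pecam1 and Cdh5, or Col1a1 and Dcn. A class called mixed immune (105 and 41 cells), in which markers of T, B and myeloid cells were all high, serves as the reference for professional class II expression. In the Fgd5-ko-labelled library 955 listed cells in 2 clusters with basal markers stayed unnamed, since Dcn or Pecam1 was among their leading genes, and are not counted as basal-like; their Cd74 was at 59.4 and 83.4 CPM. Nearly every basal-like cluster was made of cells of 1 library, so that the comparison of basal-like cells is also a comparison of unlike clusters.

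Of the 8 genes, 5 had a promoter sequence in the RefSeq table (GRCm38.p6): H2-Aa, H2-Eb1, H2-DMa, H2-DMb1 and Ctss. The 160 bases before the start of transcription are shown for 2 chain genes, which were higher in the Fgd5-ko-labelled library in basal-like and endothelial-like cells, and for Ctss, which was lower in both. In the chain genes capitals mark the letters GNAACT, the core of the X box, and TGATTGG, the Y box, the elements on which the Ciita protein is assembled with RFX and NF-Y factors. In Ctss capitals mark GAAA followed after 2 bases by GAAA, the core of an interferon-stimulated response element. The letters were chosen after these sequences were seen. H2-Aa lies at chr17:34287824-34287983 on the minus strand, H2-Eb1 at chr17:34305707-34305866 on the plus strand and Ctss at chr3:95526626-95526785 on the plus strand.
H2-Aa: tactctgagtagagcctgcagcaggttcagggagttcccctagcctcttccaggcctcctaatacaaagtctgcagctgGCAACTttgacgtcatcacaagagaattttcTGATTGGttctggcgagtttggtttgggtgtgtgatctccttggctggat
H2-Eb1: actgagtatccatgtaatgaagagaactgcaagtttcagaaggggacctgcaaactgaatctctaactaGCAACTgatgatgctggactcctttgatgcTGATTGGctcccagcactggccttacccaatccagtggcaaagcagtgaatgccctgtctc
Ctss: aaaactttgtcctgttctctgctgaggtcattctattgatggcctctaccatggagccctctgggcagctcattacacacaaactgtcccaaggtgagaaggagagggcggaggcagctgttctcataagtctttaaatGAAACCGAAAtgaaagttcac

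Read on both strands, GNAACT occurred in 25.1% and TGATTGG in 5.93% of the 32851 promoter windows of this length. GNAACT followed within 40 bases by TGATTGG on the same strand occurred in 67 windows, or 0.204%. H2-Aa, H2-Eb1 and H2-DMb1 were among these 67, whereas neither window of H2-DMa nor that of Ctss was. GAAA followed after 2 bases by GAAA occurred in 1.72% of the windows, and among the members only in that of Ctss. Because the letters were chosen from the sequences shown, their presence in H2-Aa, H2-Eb1 and Ctss was fixed in advance. The rarity of the letters is therefore no support. Only these exact letters were sought, so a window without them is not shown to lack the element. The chain and H2-DM genes lie close together on chromosome 17 (H2-DMa from 34119541 to 34139101, H2-DMb1 from 34153072 to 34160230, H2-Ab1 from 34257689 to 34269419, H2-Aa from 34282744 to 34287823 and H2-Eb1 from 34305867 to 34316674, GRCm38). Ctss lies on chromosome 3 (95526786 to 95556403), Ciita on chromosome 16 (10480059 to 10528418) and Cd74 on chromosome 18 (60803848 to 60812652).

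In basal-like cells 7 of the 8 genes were higher in the Fgd5-ko-labelled library by at least 1.5-fold and 1, Ctss, was lower. Over all 14861 genes with at least 20 UMIs in the class, 26.8% were at least 1.5-fold higher and 10.4% at least 1.5-fold lower. The median log2 ratio was 1.64 over the 8 members and 0.23 over all genes tested. Members with very few UMIs, such as Ciita and Ctss, reached 20 UMIs only through the library in which they were higher or by a small margin, so their ratios have wide intervals. The count was smaller among cells of 4000 to 12000 UMIs, where basal-like cells of the Fgd5-ko-labelled library were still the deeper ones on average. In that window 6 members had at least 20 UMIs, of which 4 were higher and 0 lower. Of all 13127 genes tested there, 23.8% were higher and 11.2% lower.

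Cd74, the invariant chain, was the most abundant of them by UMIs, which count molecules and need no correction for gene length in a 3' assay. The WT-labelled library held 542 UMIs (15.2 CPM, 13.9 to 16.5) and the Fgd5-ko-labelled library 6369 UMIs (72.9 CPM, 71.1 to 74.7), which gives a log2 ratio of 2.26 (2.14 to 2.39). As deposited, 5.33% and 42.6% of basal-like cells had a Cd74 UMI, at median depths of 4947 and 15816 UMIs. With every cell thinned to 2000 UMIs, the WT-labelled share was 150 of 6302 cells (2.38%, 2.02 to 2.79) and the Fgd5-ko-labelled share 548 of 5075 cells (10.8%, 9.96 to 11.7), a narrower gap in the same direction. Fibroblast-like cells had 0 of 885 cells (which allows up to 0.339%) and 2 of 472 cells (0.424%, 0.0514 to 1.52) at the same depth, from median depths of 6419 and 12501 UMIs. Both basal-like shares were thus above those of fibroblast-like cells of the same library.

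Positive basal-like cells mostly held a single Cd74 UMI. At 2000 UMIs per cell, 126 of the 150 positive cells of the WT-labelled library and 461 of the 548 of the Fgd5-ko-labelled library had exactly 1. Without thinning, the highest cells held 14 and 42.

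H2-Ab1, the beta chain of the I-A molecule, was at 162 UMIs (4.54 CPM, 3.87 to 5.29) in the WT-labelled library and at 1413 UMIs (16.2 CPM, 15.3 to 17.0) in the Fgd5-ko-labelled library, with a log2 ratio of 1.83 (1.60 to 2.08). Its alpha chain H2-Aa was at 49 UMIs (1.37 CPM) and 405 UMIs (4.63 CPM), a log2 ratio of 1.76 (1.33 to 2.21). H2-Eb1, the beta chain of I-E, was at 83 UMIs (2.32 CPM) and 582 UMIs (6.66 CPM), a log2 ratio of 1.52 (1.19 to 1.87). C57BL/6 mice are known to lack the I-E alpha chain, so H2-Eb1 RNA yields no I-E molecule at the surface of their cells. Thinned, H2-Ab1 was found in 0.714% (0.521 to 0.954) and 2.78% (2.34 to 3.27) of cells, and H2-Eb1 in 0.444% and 1.10%. H2-Aa was found in 0.238% (0.133 to 0.392) and 0.571% (0.383 to 0.820) of cells, intervals that overlap slightly. All 3 chain genes thus shared the direction of Cd74, and the intervals of H2-Ab1 and H2-Eb1 lie below that of Cd74.

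The H2-DM genes, which load peptides, had smaller ratios over all cells of the class. H2-DMb1 was at 294 UMIs (8.23 CPM) and 1324 UMIs (15.1 CPM), a log2 ratio of 0.88 (0.70 to 1.07). H2-DMa was at 85 UMIs (2.38 CPM) and 384 UMIs (4.39 CPM), also a log2 ratio of 0.88 (0.54 to 1.24). Both intervals lie below those of Cd74 and H2-Ab1. That order was lost among cells of 4000 to 12000 UMIs, where H2-DMb1 was at 0.85 (0.56 to 1.14), Cd74 at 0.76 and H2-Ab1 at 0.91 (0.53 to 1.29). H2-DMb1 has a close copy, H2-DMb2, which had 1 and 3 UMIs here, and the split of reads between them is uncertain. In the WT-labelled library, H2-DMb1 had more UMIs in basal-like cells than H2-Ab1, and in mixed immune cells it had 21 UMIs against 533 of H2-Ab1, so the genes did not stand in 1 ratio in the 2 classes.

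Ciita was counted at 4 UMIs (0.112 CPM, 0.0305 to 0.287) in 4 cells of the WT-labelled library and at 85 UMIs (0.973 CPM, 0.777 to 1.20) in 78 cells of the Fgd5-ko-labelled library, a log2 ratio of 3.12 (1.71 to 5.03). The 78 cells with a Ciita UMI had a median of 18534 UMIs, and the 4997 without one had 15735. Cells with a Ciita UMI held H2-Aa at 17.6 CPM (11.7 to 25.5) against 4.39 CPM (3.96 to 4.86) in those without, H2-Ab1 at 37.1 against 15.8 CPM and H2-Eb1 at 17.0 against 6.47 CPM. Cd74 was at 105.1 CPM (89.8 to 122.3) against 72.3 CPM (70.5 to 74.1). All 4 genes were higher in the cells with a Ciita UMI beyond counting error, a description over cells of 1 library in which those cells were also the deeper ones.

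Ctss, the cathepsin that trims the invariant chain in antigen-presenting cells, went the other way. It was at 15 UMIs (0.420 CPM, 0.235 to 0.693) in 15 cells of the WT-labelled library and at 10 UMIs (0.114 CPM, 0.0549 to 0.210) in 7 cells of the Fgd5-ko-labelled library, a log2 ratio of -1.88 (-3.19 to -0.63). Mixed immune cells held it at 196.6 and 99.6 CPM, and in basal-like cells it was close to 0 in both libraries.

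**Figure D1:**
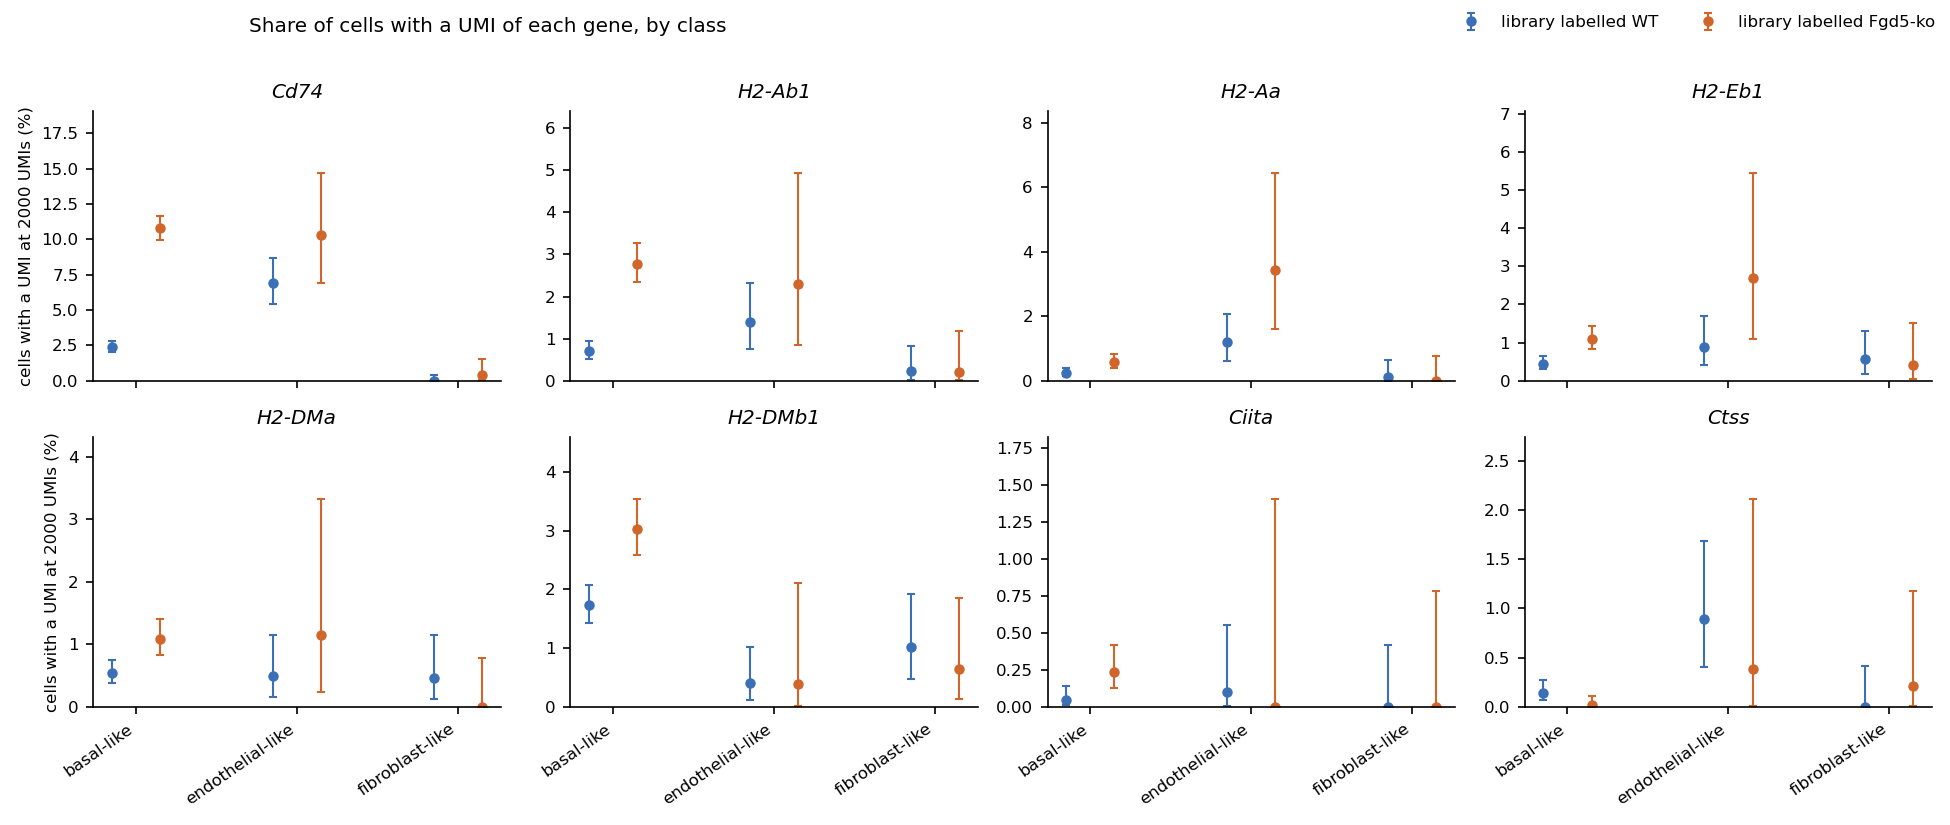
Each panel plots, for 1 gene, the share of cells with at least 1 UMI (vertical axis, percent, with every cell thinned to 2000 UMIs) in basal-like, endothelial-like and fibroblast-like cells; points are libraries and bars are exact 95% binomial intervals. Cd74 reached 10.8% of basal-like cells in the Fgd5-ko-labelled library and 2.38% in the WT-labelled library, and at most 0.424% of fibroblast-like cells.

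Cd74 was uneven among basal-like clusters. In the Fgd5-ko-labelled library, 6 of the 8 clusters stood between 66.1 and 100.3 CPM. A cluster of 866 cells led by Gm8797, Ankrd1 and Slpi was at 11.4 CPM (9.33 to 13.7), and one of 38 cells led by Ly6d was at 14.4 CPM (6.58 to 27.3). The cluster of 988 cells led by Iigp1, with the interferon-induced genes Ifit1, Irgm1 and Gbp2 among its leading genes, had the highest value, 100.3 CPM (95.9 to 104.9), with an interval that overlaps that of a cluster led by histone genes (84.3 to 98.5). Its summed chain genes were at 46.8 CPM against 8.36 CPM in the Gm8797 cluster, and it held 32 of the 85 Ciita UMIs. The genes of the interferon gamma induced list, of which Iigp1 is one, summed to 348.2 CPM there and to 64.2 CPM in the Gm8797 cluster. The list ordered the 8 clusters nearly as Cd74 did, and a link between them was not tested. Clusters led by Hist1h1b, by Cenpf and by Srxn1 and 1600014C10Rik had sums of 265.4, 188.4 and 184.0 CPM. Their Cd74 was at 91.2, 86.0 and 69.5 CPM. Those led by Srxn1 and Cxcl2 and by Rgs16 had sums of 87.2 and 95.3 CPM, near that of the Gm8797 cluster, with Cd74 at 66.1 and 73.1 CPM. The Ly6d cluster had the lowest sum, 46.4 CPM, with Cd74 slightly above that of the Gm8797 cluster. Clusters of other classes in the same library did not all follow this order. The endothelial-like cluster led by Car4 had a sum of 2575 CPM with Cd74 at 4.25 CPM. The fibroblast-like cluster led by Scg3 had 1841 CPM with Cd74 at 3.01 CPM. The endothelial-like cluster led by Glycam1 had both high, at 4022 and 832.6 CPM.

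Clusters of the WT-labelled library with at least 100 cells ran from 3.27 to 30.6 CPM of Cd74. The highest was a cluster of 822 cells led by Polr2l and mt-Nd4l (25.9 to 35.9), and the lowest were those led by Ly6d and by Csrp2, the latter at 3.55 CPM (1.83 to 6.20). The Gm8797 cluster of the Fgd5-ko-labelled library lay within this range, and its other large clusters lay above all of it. Within the cluster led by Ly6d, which both libraries shared, Cd74 was at 3.27 CPM (0.674 to 9.55) and 14.4 CPM, with intervals that overlap.

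**Figure D2:**
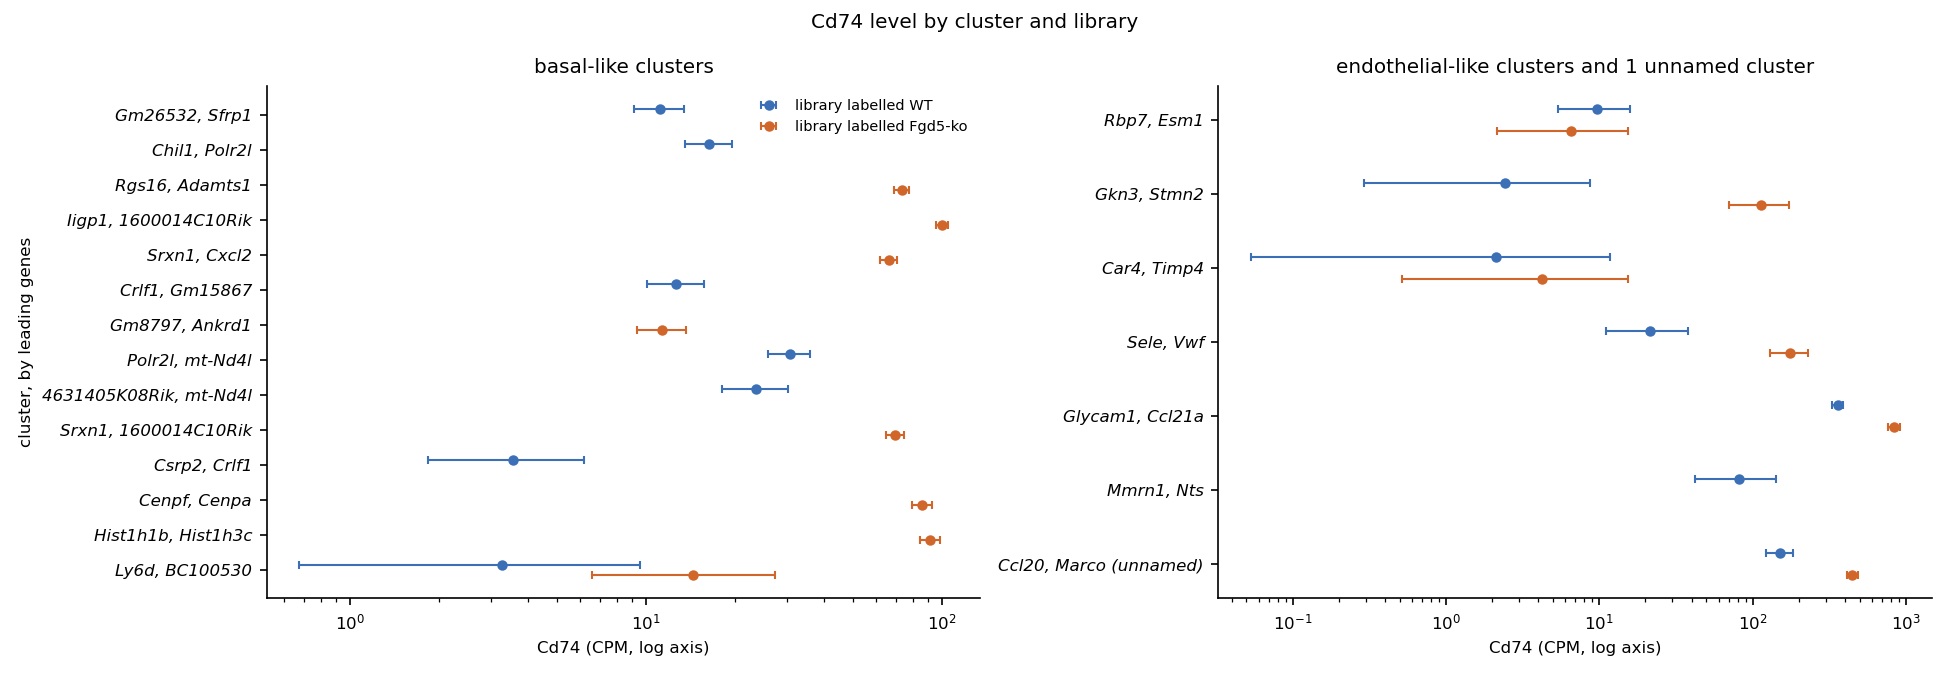
Cd74 level (horizontal log axis, CPM within the cluster) in each basal-like cluster (left) and in each endothelial-like cluster and 1 unnamed cluster (right), named by 2 leading genes; bars are exact 95% Poisson intervals, and clusters with under 10 cells of a library or with 0 Cd74 UMIs are not drawn. Basal-like clusters of the Fgd5-ko-labelled library lie at 66.1 CPM or above except those led by Gm8797 and Ly6d, and the endothelial-like cluster led by Glycam1 is the highest at 360.5 and 832.6 CPM.

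Depth moved with the basal-like difference. Among cells of 4000 to 12000 UMIs, where both libraries have cells, Cd74 was at 15.9 CPM (14.5 to 17.5) over 4457 cells of the WT-labelled library and at 26.9 CPM (24.1 to 29.9) over 1324 cells of the Fgd5-ko-labelled library, a log2 ratio of 0.76 (0.55 to 0.97). Of those 1324 cells, 589 (44.5%) belonged to the Gm8797 cluster, which was at 6.85 CPM in this window. H2-Ab1 (0.91), H2-DMb1 (0.85) and H2-Aa (0.72, -0.04 to 1.46) were also at least 1.5-fold higher there, the last with an interval that includes 0. H2-DMa was at 0.24 (-0.40 to 0.87), and H2-Eb1 turned over, at 70 and 26 UMIs and a log2 ratio of -0.27 (-0.98 to 0.40). Ciita (3 and 8 UMIs) and Ctss (12 and 1 UMIs) were under 20 UMIs in this window. In 4 equal bins of the cells ranked by UMIs, Cd74 was at 26.6, 76.5, 84.0 and 78.9 CPM from the shallowest to the deepest in the Fgd5-ko-labelled library, and at 11.1, 13.5, 18.4 and 15.4 CPM in the WT-labelled library. The shallowest bin of the Fgd5-ko-labelled library thus stood apart from the other 3, and depth, cluster and library could not be told apart in it.

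**Figure D3:**
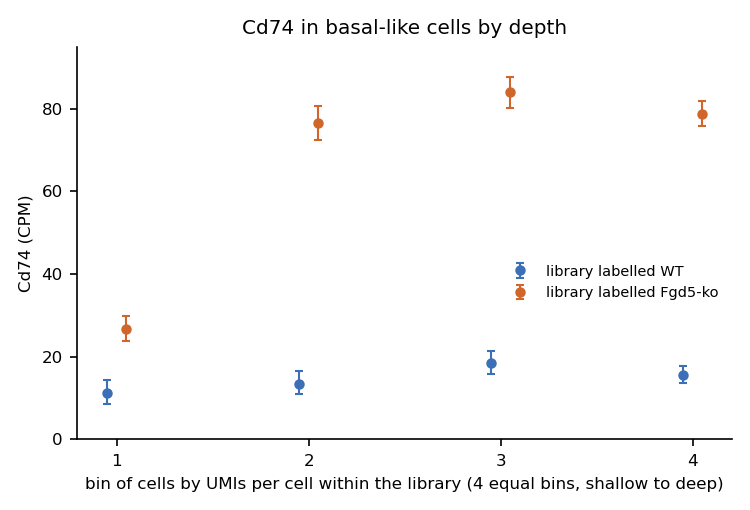
Cd74 level in basal-like cells (vertical axis, CPM) in 4 equal bins of the cells of each library ranked by UMIs per cell, with exact 95% Poisson intervals. The Fgd5-ko-labelled library is at 26.6 CPM in its shallowest bin and at 76.5 to 84.0 CPM in the others, and the WT-labelled library is at 11.1 to 18.4 CPM throughout.

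The other genes of the pathway in basal-like cells were set beside the same 26.8% and 10.4%. Their lists were also chosen with earlier results of these data known, so these counts are a description only. Of 9 interferon gamma induced genes with at least 20 UMIs, 8 were at least 1.5-fold higher in the Fgd5-ko-labelled library and 0 lower, with a median log2 ratio of 1.99. The GTPase genes Iigp1 (2.77 and 49.4 CPM, log2 ratio 4.15, 3.87 to 4.46) and Irgm1 (12.2 and 48.7 CPM, 1.99) were the examples. Of 10 genes of class I presentation and peptide loading, 8 were higher and 0 lower, with the immunoproteasome subunit Psmb9 at 2.23, the light chain B2m at 1.91 and the peptide transporter Tap1 at 1.76 on the log2 scale. Of 7 genes of interferon gamma signalling, 3 were higher and 0 lower. Among them the transcription factor Irf1 was at 189.3 and 503.3 CPM (1.41) and the kinase Jak1 at 58.0 and 121.0 CPM (1.06), whereas the receptor chain Ifngr1 was at 36.3 and 46.7 CPM (0.36). Ifng itself had 0 UMIs in basal-like cells of either library.

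Of 7 regulators that bind class II promoters with the Ciita protein, 4 were higher and 0 lower, beside 26.8% and 10.4% of all genes. Of the NF-Y subunits, Nfyb was at 30.8 and 77.3 CPM (1.33), Nfyc at 17.2 and 26.3 CPM (0.62) and Nfya at 9.49 and 14.4 CPM (0.61). The RFX subunit Rfx5 was at 4.54 and 9.21 CPM (1.02). Nfyc and Nfya lay close to the 1.5-fold limit. Median-ratio and TMM factors shift basal-like log2 ratios by -0.19 and -0.18, which takes both genes below that limit. Of 8 endosomal processing genes measured, 1 was higher (the cathepsin Ctsh, 22.6 and 42.0 CPM, 0.89) and 1 was lower (the protease Lgmn, 32.4 and 19.5 CPM, -0.73). The intramembrane protease Sppl2a was at 0.40. Of the co-stimulation genes 2 of 5 had 20 UMIs or more, Icosl (22 and 224 UMIs) and Cd40 (4 and 20 UMIs), and both were at least 1.5-fold higher, at log2 ratios of 2.06 and 1.03. The interval of Cd40 (-0.55 to 3.04) includes 0, and the gene reached 20 UMIs through the library in which it was higher. Cd80 had 0 and 1 UMIs and Cd86 1 and 4. None of the 4 other class II genes in the count tables, H2-Eb2, H2-Oa, H2-Ob and H2-DMb2, reached 20 UMIs in basal-like cells.

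**Figure D4:**
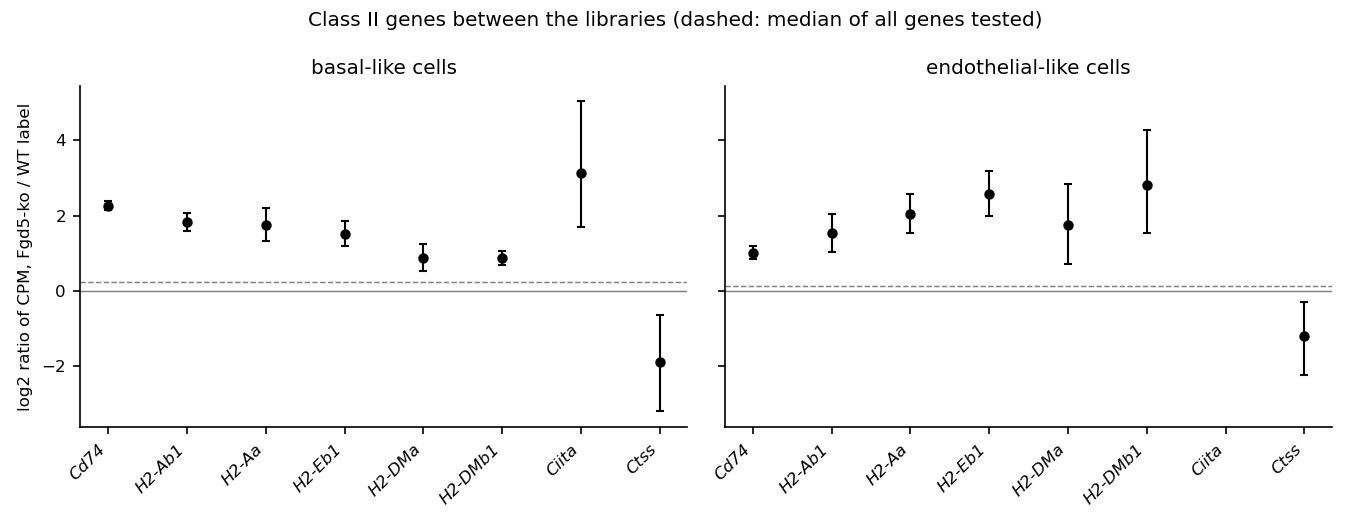
Log2 ratio of CPM (vertical axis), library labelled Fgd5-ko over library labelled WT, for each member with at least 20 UMIs in basal-like cells (left) and endothelial-like cells (right), with exact 95% intervals; the solid line is 0 and the dashed line the median of all genes tested. Only Ctss lies below 0 in either class, at -1.88 and -1.20, and Ciita had too few UMIs to be drawn in endothelial-like cells.

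Endothelial-like cells as a class had a higher Cd74 level (CPM) than basal-like cells in both libraries, which rested on 1 cluster, the one led by Glycam1. The WT-labelled library held 618 Cd74 UMIs (119.9 CPM, 110.6 to 129.7) and the Fgd5-ko-labelled library 586 (243.2 CPM, 223.9 to 263.7), so that the log2 ratio was 1.02 (0.85 to 1.19). Without that cluster, an alternative chosen after the data were seen, the levels were 11.8 CPM (8.51 to 16.0) and 44.4 CPM (35.2 to 55.3), against 15.2 and 72.9 CPM in basal-like cells. At the thinned depth Cd74 was found in 70 of 1010 WT-labelled cells (6.93%, 5.44 to 8.68) and in 27 of 261 Fgd5-ko-labelled cells (10.3%, 6.93 to 14.7), shares whose intervals overlap. Of the 7 members with at least 20 UMIs here, 6 were at least 1.5-fold higher in the Fgd5-ko-labelled library and 1 was lower, beside 19.5% higher and 11.0% lower of the 10636 genes tested. The members' median log2 ratio was 1.75 and that of all genes 0.13.

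The chain genes H2-Aa (49 and 95 UMIs, 9.51 and 39.4 CPM), H2-Ab1 (60 and 81 UMIs, 11.6 and 33.6 CPM) and H2-Eb1 (34 and 94 UMIs, 6.60 and 39.0 CPM) had log2 ratios of 2.05, 1.53 and 2.56. H2-DMb1 was at 7 and 23 UMIs (2.81, 1.55 to 4.28) and H2-DMa at 14 and 22 UMIs (1.75, 0.72 to 2.83). H2-DMb1 and H2-DMa passed the minimum of 20 UMIs mainly through the Fgd5-ko-labelled library, in which they were higher. Ctss was at 59 UMIs (11.5 CPM) and 12 UMIs (4.98 CPM), a log2 ratio of -1.20 (-2.23 to -0.29). Ciita had 1 and 2 UMIs, too few for a ratio. Over all cells of the class these directions matched those of basal-like cells, but they did not all hold among cells of like depth.

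Most of the endothelial class II RNA sat in few clusters. A cluster led by Glycam1, Ccl21a and Ubd (163 and 20 cells), genes known from high endothelial venules, held 576 of the 618 and 506 of the 586 Cd74 UMIs. It also held 68 of the 76 and 8 of the 11 UMIs of the 5 pan-immune markers in the class, and their part in its Cd74 level was not tested. That level was 360.5 CPM (331.7 to 391.2) and 832.6 CPM (761.6 to 908.4), and 1 cell held 124 of the 506 UMIs, without which the level was 760.3 CPM. Thinned, 35.4% (28.0 to 43.4) and 70.0% (45.7 to 88.1) of its cells had a Cd74 UMI. Of the Ctss UMIs of the class the cluster held 55 of the 59 and all 12, at 34.4 and 19.7 CPM (log2 ratio -0.80, -1.84 to 0.12).

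The cluster led by Sele, Vwf and Selp (158 and 27 cells), adhesion genes of venous endothelium, had a different make-up. Its Cd74 was at 12 UMIs (21.6 CPM, 11.2 to 37.7) and 52 UMIs (174.5 CPM, 130.3 to 228.9), and the log2 ratio was 3.02 (2.09 to 4.06). Its chain genes together were at 41.4 and 402.7 CPM, above Cd74 in both libraries, and Ctss had 0 UMIs in both. Cd74 UMIs per chain UMI were 0.522 and 0.433 there against 5.54 and 4.11 in the Glycam1 cluster. Among the remaining endothelial-like clusters, those led by Rbp7 and Esm1 and by Car4 and Timp4 were at 9.68 CPM or less in both libraries. In the cluster led by Gkn3, all 21 Cd74 UMIs of the Fgd5-ko-labelled library came from 1 cell of 30. In the cluster led by Mmrn1, 40 cells of the WT-labelled library held Cd74 at 81.1 CPM (41.9 to 141.7), found in 3 cells, and 13 cells of the other library held 0 UMIs.

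Within 4000 to 12000 UMIs per cell the endothelial ratios differed by gene. Cd74 turned over, to -2.21 (-2.76 to -1.70) at 295 and 35 UMIs, and H2-Ab1 was at -0.24 (-1.08 to 0.56), whereas H2-Eb1 stayed higher at 1.98 (1.14 to 2.88) on 18 and 39 UMIs. H2-Aa was at 0.39 (-0.36 to 1.13), H2-DMa at 0.22 (-1.39 to 1.71) on 11 and 7 UMIs and H2-DMb1 at 1.61 (-0.76 to 4.29) on 3 and 5 UMIs. Of the 5 members with at least 20 UMIs in the window, 1 was at least 1.5-fold higher and 2, Cd74 and Ctss, were lower, beside 26.3% higher and 11.3% lower of 8965 genes. The window changed which cells were compared: it held 89 of the 163 cells of the Glycam1 cluster in the WT-labelled library and 3 of the 20 in the other, whose cells in that cluster had median depths of 8663 and 25274 UMIs. Without the Glycam1 cluster, at all depths, the log2 ratio of Cd74 was 1.91 (1.35 to 2.49) at 42 and 80 UMIs. Depth and cluster could not be told apart in the endothelial window.

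Among the clusters that were given no class name, 3 had the highest Cd74 levels. The cluster led by Ccl20, Marco and Lyve1 (125 and 54 cells), whose highest list was endothelial but not by the margin needed for a name, had Cd74 at 151.5 CPM (123.0 to 184.7) and 447.5 CPM (410.2 to 487.1). Its Ctss was at 140.7 and 90.8 CPM, in 40.8% and 70.4% of its cells as deposited. Ptprc (CD45) had 0 UMIs there, but the 5 pan-immune markers together were at 26.3 and 16.8 CPM, against 1.68 and 1.04 CPM in basal-like cells. Its second list was that of dendritic cells, and Cd14 and Msr1 were also among its leading genes. The part of immune cells in these values was not tested. The cluster led by Ccl19 and Cxcl13 (37 and 43 cells), with pericyte and fibroblast markers both high, had Cd74 at 376.2 and 315.4 CPM, with intervals that overlap (292.1 to 476.9 and 266.0 to 371.3). A further cluster led by Glycam1 and Ubd with the B cell gene Cd79a among its leading genes (62 cells of the WT-labelled library) was at 1681 CPM. Its highest lists were those of B cells and of T and NK cells. Ptprc had 62 UMIs there and the pan-immune markers were at 630 CPM, so this value is not one of non-immune cells alone. Unnamed clusters outside the authors' list that mixed basal with other markers were lower. The one led by Slpi, Sox17 and Ptprb (120 and 46 cells) had Cd74 at 14.9 and 92.0 CPM (8.31 to 24.5 and 74.9 to 111.9), and the one led by Smoc2, Slpi and Lum (99 and 61 cells) at 10.5 and 58.4 CPM (5.45 to 18.4 and 46.3 to 72.8). The cluster led by Gm13889, Rrad and Foxs1 (51 and 46 cells) was at 38.1 and 55.4 CPM, with intervals that overlap (22.6 to 60.2 and 41.5 to 72.4).

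Fibroblast-like cells held little class II RNA. Cd74 was at 6 UMIs (1.02 CPM, 0.374 to 2.22) in the WT-labelled library and at 10 UMIs (1.69 CPM, 0.812 to 3.11) in the Fgd5-ko-labelled library. H2-Eb1 was at 18 and 8 UMIs and H2-DMb1 at 19 and 16 UMIs, and these were the 2 members with at least 20 UMIs over both libraries. In the WT-labelled library H2-Eb1 was at 3.05 CPM (1.81 to 4.83), not below the 2.32 CPM of basal-like cells, whereas H2-Aa and H2-Ab1 were lower than there. In the Fgd5-ko-labelled library H2-Eb1 was at 1.35 CPM, against 6.66 CPM in basal-like cells. H2-Eb1 was at least 1.5-fold lower (log2 ratio -1.17, -2.58 to 0.10) and H2-DMb1 was within that limit (-0.25, -1.31 to 0.79), where 14.2% of 11548 genes were lower and 16.4% higher. Ciita had 0 and 1 UMIs and Ctss 2 and 1. No difference between the libraries was detectable at these counts.

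Luminal cells were too few to place most members. In luminal progenitor-like cells of the WT-labelled library, Cd74, the 3 chain genes, Ciita and Ctss had 0 UMIs over 146 cells, and thinned shares of up to 2.40% are allowed by 0 of 125 cells. The 23 cells of the Fgd5-ko-labelled library held 7 Cd74 UMIs (12.3 CPM, 4.93 to 25.3) in 2 cells. No member reached 20 UMIs in that class. Hormone-sensing luminal-like cells held 4 Cd74 UMIs in 113 cells and 0 in 10, but 29 and 11 UMIs of H2-DMb1 (16.1 CPM, 10.8 to 23.1, and 35.1 CPM, 17.6 to 62.9) and 20 and 2 of H2-DMa. H2-DMb1 was counted as higher (log2 ratio 1.13, -0.02 to 2.17) and H2-DMa as lower (-0.80, -3.94 to 1.25), beside 24.9% and 22.7% of the 7702 genes tested, and both intervals include 0. H2-DMb1 RNA was thus found in hormone-sensing cells in which Cd74 was at or near 0.

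Chain genes were found more often in cells with Cd74 than in cells without it. At 2000 UMIs per cell, a chain gene was found in 15 of 150 basal-like cells with Cd74 (10.0%, 5.71 to 16.0) and in 64 of 6152 without (1.04%, 0.802 to 1.33) in the WT-labelled library. The Fgd5-ko-labelled library had 66 of 548 cells (12.0%, 9.44 to 15.1) against 133 of 4527 cells (2.94%, 2.47 to 3.47). Endothelial-like cells had 13 of 70 (18.6%) against 14 of 940 (1.49%), and 11 of 27 (40.7%) against 3 of 234 (1.28%). In mixed immune cells, 42 of 43 and 14 of 15 cells with Cd74 had a chain gene. Most basal-like cells with Cd74 thus had no chain UMI at this depth, unlike the immune cells. Without thinning, 62 of 339 and 648 of 2163 basal-like cells with Cd74 had one. The immune cells held Cd74 at 3941 and 1777 CPM, against 15.2 and 72.9 CPM in basal-like cells. Fewer UMIs of these genes per cell leave more cells without a chain UMI, so the contrast cannot be told apart from this difference in level.

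The ratio of Cd74 to the chain genes differed between classes. Basal-like cells had 1.84 (1.60 to 2.13) and 2.65 (2.53 to 2.78) Cd74 UMIs per chain UMI in the libraries labelled WT and Fgd5-ko, endothelial-like cells had 4.32 (3.60 to 5.22) and 2.17 (1.88 to 2.52), and fibroblast-like cells had 0.222 (0.0750 to 0.549) and 0.667 (0.268 to 1.59). Mixed immune cells had 1.15 (1.07 to 1.22) and 1.08 (0.977 to 1.20), and their Cd74 was at 3941 and 1777 CPM. Within each library the ratio of mixed immune cells lay below those of basal-like and endothelial-like cells, with intervals that did not meet. The intervals of basal-like and endothelial-like cells were far apart in the WT-labelled library and nearly met in the other. There 3 cells held 40.4% of the endothelial-like Cd74 UMIs, which intervals for counting error do not cover.

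Markers of immune cells were counted in the same cells. In basal-like cells Ptprc had 2 and 0 UMIs, and the 5 pan-immune markers together had 60 UMIs (1.68 CPM, 0 of 5 at 0) and 91 UMIs (1.04 CPM, 1 of 5 at 0). Had Cd74 stood to these markers as in the mixed immune cells of the same library, it would have been at 3.42 and 2.12 CPM, where 15.2 and 72.9 CPM were measured. The 7 B cell markers summed to 1.18 and 0.389 CPM (1 and 2 at 0), the 8 dendritic markers to 0.700 and 1.37 CPM (6 and 4 at 0) and the 10 myeloid markers to 15.2 and 3.83 CPM (1 at 0 in each). Cd68 made up 417 of the 542 myeloid UMIs and 226 of the 335. The 9 T and NK markers summed to 22.9 and 27.7 CPM (4 and 1 at 0), of which Trbc2 made up 698 of 817 and 1908 of 2423 UMIs, while Cd3e had 0 and 8. These 3 lists gave higher values by the same arithmetic: 21.2 and 18.5 CPM of Cd74 for myeloid, 120.9 and 110.2 CPM for T and NK and 13.2 and 14.6 CPM for dendritic markers. Doublets were not removed, and their part in the result was not tested.

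Without the basal-like cells that held a UMI of any of the 39 immune markers, the log2 ratio of Cd74 was 2.41 (2.25 to 2.58), at 342 and 3208 UMIs. Of the thinned Cd74-positive basal-like cells, 30.7% and 43.2% had held such a UMI, against 18.6% and 36.7% of the negative ones. In endothelial-like cells Ptprc had 0 UMIs in both libraries, and the pan-immune markers had 76 UMIs (14.8 CPM, 1 of 5 at 0) and 11 UMIs (4.57 CPM, 2 of 5 at 0), mostly Coro1a with 65 and 8. Leaving out cells with an immune marker UMI brought the endothelial Cd74 ratio to 0.47 (0.17 to 0.77), at 274 and 137 UMIs. That filter also removed cells for Zbtb46 alone, which made up 124 of the 125 and 58 of the 60 dendritic marker UMIs of the class. The filtered ratio therefore does not show how much of the Cd74 came from immune cells. In fibroblast-like cells of the Fgd5-ko-labelled library Cd3e had 119 UMIs against 0 in the other library, while Ptprc had 0 against 2.

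Across the 16 sums of 8 classes by 2 libraries, the genes whose log2(CPM + 1) followed that of Cd74 most closely among 16049 genes were Dtx1 (Pearson r 0.94), Lrat (0.92), Pou2af1 (0.91), Sapcd1 (0.90) and Lrmp (0.90). Among the members H2-Ab1 (0.97), H2-Eb1 (0.92), H2-Aa (0.91), Ctss (0.89) and Ciita (0.84) lay close to Cd74, and H2-DMa (0.59) and H2-DMb1 (0.48) did not. The sums share libraries and depth, and the mixed immune class is the highest point for most of these genes, so the values are a description only.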

How the data were processed

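The authors deposited UMI counts per gene and barcode for 2 libraries, with no normalization; the software version in the file headers is 3.1.0, and per the submitters' processing notes Seurat 3.0, Cell Ranger and the mm9 build were used, with no step stated for each. Their deposited table of cell barcodes with map coordinates, which have no unit, was used only to list cells. Barcodes outside it were kept from 1000 UMIs and 500 genes up, with no more than 15% mitochondrial UMIs.

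Listed and other barcodes were clustered separately on both libraries together (counts scaled to 10000 per cell, log-transformed, 2000 variable genes without the 8 members, 30 components, 15 neighbours, Leiden resolution 1), with no batch correction and no doublet removal. A cluster took the name of the marker list whose mean level, relative to each marker's highest cluster, led the next list by at least 2-fold, with at least 3 markers in at least 10% of cells and no other class ahead among its top 10 genes. That rule was set after the data were seen, and names may therefore differ from the study's. A pair of immune-led clusters was kept as 1 mixed class, and adipocyte and erythroid lists were not used for names.

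UMIs were summed per class and library and divided by the class total (CPM). Log2 ratios set the Fgd5-ko-labelled library over the WT-labelled one, with exact conditional intervals; CPM have exact Poisson and shares exact Clopper-Pearson intervals. Called means at least 1.5-fold apart with at least 20 UMIs over both libraries. A count of 0 allows up to 3 counts. Thinned shares come from a random draw of 2000 UMIs per cell, leaving out shallower cells (61 and 0 basal-like, 268 and 15 endothelial-like). The ratio intervals were tested on simulated Poisson counts, and a thinning function on made-up cells. Clustering, naming and the draw that gave the thinned shares were not tested in this way. The alternatives tried were thinning to 1000 or 4000 UMIs or not at all, at least 2 UMIs, and cells without immune marker UMIs. Others were clustering with all class II genes kept, other scalings, a UMI window, no minimum and Leiden resolution 0.5.

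Named beside the members were, of each pathway list, up to 3 genes with the largest absolute ratio in basal-like cells at a mean of at least 20 CPM (regulators 5 CPM), and the 5 genes most like Cd74. Cd40, Icosl, Cd80, Cd86, Nfya, Ifng, the immune markers and the leading genes of clusters were chosen after values were seen. The members and lists were chosen with earlier results of these data known. Promoters are from RefSeq and gene positions from GENCODE M21, neither from the submitters' build. Clustering used scanpy 1.11.5 with leidenalg 0.10.2, igraph 0.11.9 and scikit-learn 1.9.0, and the other steps SciPy 1.17.1, pandas 2.3.3, NumPy 2.4.6 and matplotlib 3.10.9 in Python 3.11.15.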

Additional observations from a re-analysis of the deposited data

How the results depend on the processing

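No paired analysis was possible because each group has 1 library. The direction of the basal-like Cd74 ratio (2.26) held under every alternative tried: 2.07 with median-ratio size factors, 2.09 with TMM factors, 2.41 without cells with an immune marker UMI and 0.76 in cells of 4000 to 12000 UMIs. That window reversed H2-Eb1 in basal-like cells (-0.27) and H2-Ab1 (-0.24) and Cd74 (-2.21) in endothelial-like cells; the cause was not tested. The endothelial Cd74 ratio (1.02) was 0.47 without cells with an immune marker UMI and 1.91 without the cluster led by Glycam1. The basal-like Cd74 share in the WT- and Fgd5-ko-labelled libraries was 1.32% and 5.56% at 1000 UMIs, 4.22% and 18.3% at 4000, 5.33% and 42.6% unthinned, 0.381% and 1.71% for at least 2 UMIs, and 9.79% in the latter without cells with an immune marker UMI. With no minimum, 10015 genes in place of 5527 were at least 1.5-fold apart in basal-like cells, since more genes are then tested. Clustering with all class II genes kept and Leiden resolution 0.5 kept each of 19 ratios within its interval. The number of cells (10 to 146 a library) limits the luminal values.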
